A study of Homo sapiens with 11 samples.

Results

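The genes described here are the WNT ligands, their receptors and their antagonists, followed in cardiomyocytes kept in long-term culture. They were chosen by symbol alone, as the WNT, frizzled (FZD), LRP5 and LRP6, R-spondin (RSPO), LGR4 to LGR6, SFRP, FRZB, DKK, WIF1, NOTUM, PORCN, AXIN, NKD1, NKD2, RNF43, ZNRF3 and TCF/LEF genes. The rule took 49 of the 19990 genes of the count table, and 11 further RefSeq genes with matching symbols were not analysed here. The cells came from WTC11, an established line of human induced pluripotent stem cells (iPSC), used at passage 63. A single differentiation was started with CHIR99021, a GSK3 inhibitor that switches WNT signalling on, and continued with IWP2, which blocks the export of WNT ligands. All wells shared that treatment and were then kept in B27 medium with insulin. Poly(A) RNA was sequenced from 4 wells at Day 30, 3 at Day 60 and 4 at Day 113. The replicates were wells of that differentiation, so p-values measure the spread between wells only, and day of culture and collection cannot be told apart.

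WNT proteins are secreted lipid-modified ligands: the acyltransferase PORCN attaches the lipid that they need to leave the cell and to bind their receptors. A ligand that engages a frizzled receptor together with LRP5 or LRP6 stops the destruction complex, built on AXIN, from degrading β-catenin, which then drives genes through TCF/LEF factors; other ligands act through frizzled receptors without β-catenin. R-spondins and LGR receptors amplify the signal by removing the ligases RNF43 and ZNRF3 from the membrane, whereas SFRP proteins and WIF1 bind WNT ligands, DKK1 and DKK2 block LRP5 and LRP6, and NOTUM removes the lipid. In the developing heart the pathway acts in opposite ways at successive stages, which is the basis of the differentiation protocol.

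The libraries held 24.07 to 34.55 M counts (M, 1000000), and the 49 genes together took 0.2903% to 0.3357% of them. Of the 12 cardiomyocyte markers examined, all were detected, with a summed level of 33819.7 to 45589.7 counts per 1000000 counts (CPM) at Day 30, 43061 to 48726 at Day 60 and 36689 to 40780.1 at Day 113. Markers of other cells were present too, and some moved between days. A list of 8 endoderm and epithelium markers summed to 358 to 981 CPM at Day 30, 23.9 to 33.9 at Day 60 and 14.6 to 29.2 at Day 113. The sum of 8 endothelial markers was 78.1 to 117, 49.4 to 81.5 and 234 to 879 CPM, and that of 10 fibroblast markers was 3441 to 8083, 2115 to 3614 and 5461 to 13069 CPM. Epicardial markers (8 genes) summed to 736 to 978, 629.7 to 724 and 309.9 to 477 CPM, and 6 proliferation markers to 346 to 435, 541 to 790.1 and 208 to 405 CPM. COL1A1, COL1A2 and COL3A1 held most of the fibroblast sum at each day. KRT19 held most of the epicardial sum at Days 30 and 60, with daily means of 634, 457 and 117 CPM. From Day 30 to Day 113, 4 of the 8 epicardial markers fell, KRT19 among them, and 2 rose. The 2 were WT1, with daily means of 5.58, 21.6 and 46.9 CPM, and TBX18, with 98.3, 138 and 158 CPM. The 5 smooth muscle markers in the table gave 774 to 986, 728 to 885 and 905 to 1416 CPM, and the 5 neural markers 17.9 to 50.3, 35.9 to 82.7 and 17.8 to 48.7 CPM. The 2 pluripotency markers in the table summed to 3.63 to 6.80 CPM at Day 30, at most 0.221 at Day 60 and 0 at Day 113, and 2 immune markers stayed under 4 CPM. The part of these cells and of proliferation in the changes was not tested. In bulk RNA, fewer cells of a type and less RNA per cell cannot be told apart.

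More of these genes fell than rose as the culture aged. From Day 30 to Day 113, 30 of the 49 genes changed (34.5% of all genes changed): 25 fell (17.2% of all genes fell) and 5 rose (17.3% of all genes rose), by edgeR's quasi-likelihood test with Benjamini-Hochberg adjustment over all genes and a threshold of 0.05. Their median log2 fold change was -0.64, against -0.02 for all genes tested. Between Day 30 and Day 60, 11 genes changed (10.3% of all genes): 7 fell (5.91% of all genes) and 4 rose (4.39%), with a median of -0.32 against -0.01 for all genes. Between Day 60 and Day 113, 19 genes changed (24.0% of all genes): 16 fell (11.1% of all genes) and 3 rose (12.9%), with a median of -0.48 against 0.00. The wells of Day 30 and Day 113 did not overlap for 29 of the 49 genes, where 35.1% of all genes were so separated. The same held for 26 genes between Day 30 and Day 60 (24.8% of all genes) and for 17 between Day 60 and Day 113 (30.6%). Mean levels were ordered Day 30 above Day 60 above Day 113 for 27 genes (22.3% of all genes) and the reverse for 5 (21.3%). In all, 35 genes were called in at least 1 pair of days (41.5% of all genes), 7 in both intervals (4.43%) and 14 in none (58.5%). The count of falls between Day 60 and Day 113 was 8 without Day 60 replicate 1. The count between Day 30 and Day 60 was 4 without Day 30 replicate 2, Day 60 replicate 1 or Day 60 replicate 3, where 2 genes rose without Day 60 replicate 1.

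**Figure D1:**
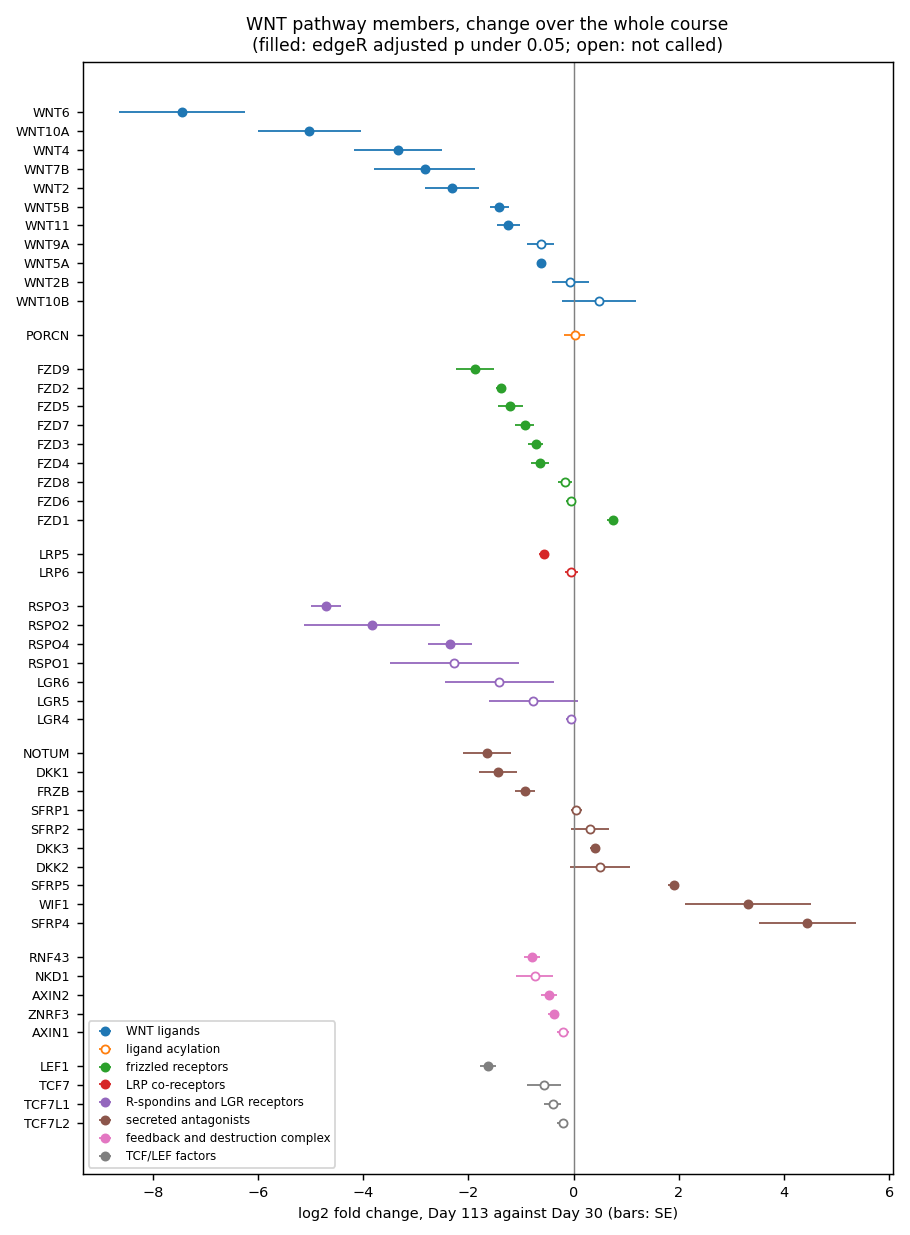
Log2 fold change of each of the 49 genes from Day 30 to Day 113, grouped by role, with its standard error; filled points passed the adjusted threshold of 0.05. The 25 filled points left of 0 include 8 WNT ligands and 6 frizzled receptors. The 5 on the right are FZD1 and, from the genes listed as secreted antagonists, DKK3, SFRP4, SFRP5 and WIF1.

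**Figure D2:**
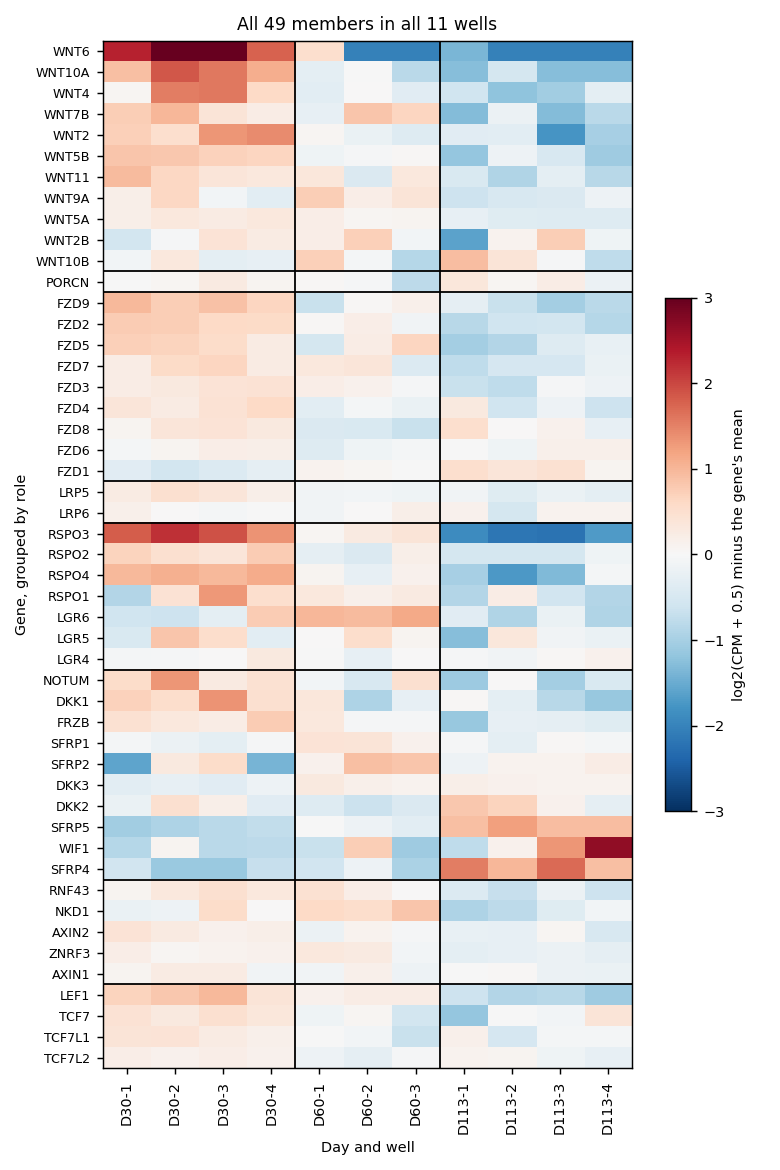
Each row is a gene and each column a well, ordered by day; the colour is log2(CPM + 0.5) minus the mean of that gene over the 11 wells. Most rows turn from high at Day 30 to low at Day 113, and SFRP5 and FZD1 turn the other way.

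Sequence upstream of a few of these genes is shown because DKK1, WNT6 and SFRP5 stand for different courses in the data: DKK1 and WNT6 fell and SFRP5 rose. The stretches are the 250 bases before the RefSeq start (GRCh38.p14), written 5′ to 3′ on the strand of the gene. Capitals mark the TCF/LEF words ATCAAAG and TTCAAAG along with AACAAAG and also TACAAAG, searched on both strands and with no overlap between hits. DKK1, a textbook target of β-catenin and an inhibitor of LRP5 and LRP6, lies at chr10:52314031-52314280, plus strand, and its window held CTTTGAA 95 bases and CTTTGTT 76 bases before the start.
DKK1: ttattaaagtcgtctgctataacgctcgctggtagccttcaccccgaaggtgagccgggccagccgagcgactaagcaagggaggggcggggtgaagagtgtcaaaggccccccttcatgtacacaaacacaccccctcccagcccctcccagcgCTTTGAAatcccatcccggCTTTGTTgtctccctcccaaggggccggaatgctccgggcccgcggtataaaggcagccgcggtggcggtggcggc
The window of WNT6, chr2:218859555-218859804, plus strand, lies before the ligand with the largest fitted fall.
WNT6: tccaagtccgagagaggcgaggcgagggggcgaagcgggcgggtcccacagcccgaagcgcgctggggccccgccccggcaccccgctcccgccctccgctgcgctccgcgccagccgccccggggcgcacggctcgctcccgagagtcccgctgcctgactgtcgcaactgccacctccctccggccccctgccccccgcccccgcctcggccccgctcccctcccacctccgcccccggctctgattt
The window of SFRP5, chr10:97772000-97772249, minus strand, precedes the antagonist that rose in both intervals.
SFRP5: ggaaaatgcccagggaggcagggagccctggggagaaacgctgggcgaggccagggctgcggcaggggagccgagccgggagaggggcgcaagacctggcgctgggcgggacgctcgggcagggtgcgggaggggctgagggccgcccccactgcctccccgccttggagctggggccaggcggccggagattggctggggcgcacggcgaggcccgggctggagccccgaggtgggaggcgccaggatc
No such word is in the WNT6 or SFRP5 window. Of 42 windows belonging to 32 of the 49 genes, 3 (7.14%) held one, those of DKK1, TCF7 and TCF7L2, against 12.0% of 35116 windows of all RefSeq genes. A match is a string of letters and says nothing of binding.

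WNT ligands fell over the course: 8 of the 11 in the table were lower at Day 113 than at Day 30 (17.2% of all genes were lower). Per kilobase of exon, the 11 ligands together amounted to 51.7 to 64.6 CPM per kb in the Day 30 wells, 35.3 to 40.0 at Day 60 and 21.9 to 27.9 at Day 113, with no overlap between days. WNT5A and WNT5B, ligands best known for signalling without β-catenin, and WNT11, another such ligand with a role in heart development, made up most of that sum. WNT5A accounted for 27.6% to 34.9% of it at Day 30 and 40.5% to 52.9% at Day 113, and WNT5B for 32.0% to 38.7% and 23.7% to 39.7%. The share of WNT11 was 8.70% to 14.6% at Day 30 and 7.7% to 12.9% at Day 113. That of WNT6 was 7.22% to 21.8% at Day 30 and at most 0.734% at Day 113.

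WNT5A held 122, 135, 128 and 134 CPM in the Day 30 wells, 124, 112 and 114 CPM in the Day 60 wells and 90.3, 83.6, 82.4 and 81.8 CPM in the Day 113 wells. The Day 113 wells were the lowest, and the Day 30 and Day 60 wells overlapped. WNT5A (chromosome 3, 55465715 to 55505263, minus strand) fell by 0.47 ± 0.09 (SE; edgeR adjusted p = 0.0011) on the log2 scale from Day 60 to Day 113 and fell by 0.62 ± 0.08 (SE; edgeR adjusted p = 2.7e-05) over the whole course. WNT5B stood at 94.5, 93.0, 86.4 and 83.5 CPM in the Day 30 wells, 48.9, 51.6 and 54.8 CPM in the Day 60 wells and 23.6, 47.7, 38.0 and 25.0 CPM in the Day 113 wells. The 3 days did not overlap, and replicate 2 was the highest of the Day 113 wells. WNT5B (chromosome 12, 1617056 to 1647212, plus strand) fell by 0.79 ± 0.19 (SE; edgeR adjusted p = 0.013) in the first interval, fell by 0.63 ± 0.18 (SE; edgeR adjusted p = 0.022) in the second and fell by 1.41 ± 0.17 (SE; edgeR adjusted p = 1.5e-05) in all. WNT11 had 19.9, 15.6, 13.1 and 12.6 CPM in the Day 30 wells, 12.7, 7.26 and 12.7 CPM in the Day 60 wells and 7.13, 5.14, 8.13 and 5.42 CPM in the Day 113 wells. All Day 113 wells were below all Day 30 wells, with Day 60 between and overlapping both. WNT11 fell by 0.75 ± 0.24 (SE; edgeR adjusted p = 0.03) after Day 60 and fell by 1.24 ± 0.22 (SE; edgeR adjusted p = 0.00045) from Day 30. The WNT5B call in the first interval was lost without Day 60 replicate 1 (edgeR adjusted p = 0.064). In the second interval the WNT5B call was lost without Day 60 replicate 2 or 3, or Day 113 replicate 4 (edgeR adjusted p 0.052 to 0.066) and with the 2 days fitted alone (0.053), and the WNT11 call was lost without Day 60 replicate 1 or 3, or Day 113 replicate 2 or 4 (edgeR adjusted p 0.067 to 0.12) and under limma-voom (0.051) and with the 2 days fitted alone (0.054).

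WNT6 and WNT10A are neighbours on chromosome 2, and both were at 0 counts in 3 of the 4 Day 113 wells. WNT6 measured 9.47, 20.0, 23.3 and 6.36 CPM in the Day 30 wells, 2.36, 0 and 0 CPM in the Day 60 wells and 0.289, 0, 0 and 0 CPM in the Day 113 wells. Every Day 30 well was above every later well, and replicates 2 and 3 were the high Day 30 wells. WNT6 (chromosome 2, 218859805 to 218874233, plus strand) had counts in 1 well at each later day, 74 in Day 60 replicate 1 and 10 in Day 113 replicate 1. Its fitted log2 change was -7.44 ± 1.19 (SE; edgeR adjusted p = 0.00017) from Day 30 to Day 113 and -4.20 ± 1.04 (SE; edgeR adjusted p = 0.016) to Day 60. Mean levels over all wells were 14.8 ± 8.14, 0.787 ± 1.36 and 0.0722 ± 0.144 CPM (SD, n = 4, 3 and 4). Without the 1 well that held counts, the fitted change was -11.76 at Day 113 and -11.76 at Day 60; the remaining wells were at 0, so these values depend on the prior count and give no bound. The call at Day 60 was lost without Day 30 replicate 2 or 3, or Day 60 replicate 3 (edgeR adjusted p 0.054 to 0.059) and under DESeq2 (0.31), under limma-voom (0.058) and with robust dispersions (0.1). WNT10A stood at 1.76, 3.87, 3.09 and 2.06 CPM in the Day 30 wells, 0.479, 0.700 and 0.189 CPM in the Day 60 wells and 0, 0.337, 0 and 0 CPM in the Day 113 wells. WNT10A (chromosome 2, 218874116 to 218893928, plus strand), a ligand known from skin and tooth development, had 9 counts at Day 113, all in replicate 2, and a fitted change of -5.02 ± 0.98 (SE; edgeR adjusted p = 0.00093). Without that well the fitted change was -9.34, which again rests on wells at 0 and gives no bound. The starts of the neighbours lie 14311 bases apart and the genes overlap by 118 bases. Since the strand is the same, a read in that stretch could belong to either. The 8 endoderm and epithelium markers, of which 7 fell by Day 60, moved in the same interval, and the 2 pluripotency markers fell in it too. Day 30 replicates 2 and 3 were both above replicates 1 and 4 for 3 of these 8 (SOX17, EPCAM and CDH1) and not for the other 5, and the summed list was 810.0, 981, 746 and 358 CPM in Day 30 replicates 1 to 4. FOXA2 was at 0 in 2 of 3 Day 60 wells and 3 of 4 Day 113 wells. The part of such cells in the WNT6 and WNT10A values was not tested.

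Of the scarcer ligands, WNT2, WNT4 and WNT7B also fell from Day 30 to Day 113, and WNT9A fell after Day 60. WNT2 held 3.06, 2.60, 4.94 and 5.36 CPM in the Day 30 wells, 1.76, 1.40 and 1.17 CPM in the Day 60 wells and 1.21, 1.24, 0.143 and 0.602 CPM in the Day 113 wells. All Day 30 wells were above the other 7. WNT2, a ligand expressed by early cardiac and lung mesoderm, fell by 2.32 ± 0.51 (SE; edgeR adjusted p = 0.0023). WNT4 had 0.687, 2.84, 2.93 and 1.24 CPM in the Day 30 wells, 0.415, 0.663 and 0.410 CPM in the Day 60 wells and 0.260, 0, 0.0571 and 0.441 CPM in the Day 113 wells. The Day 30 wells were above all later ones, and 1 Day 113 well had no count. WNT4, which acts in kidney and gonad development, fell by 3.34 ± 0.84 (SE; edgeR adjusted p = 0.0056). WNT7B stood at 1.57, 1.97, 1.12 and 0.928 CPM in the Day 30 wells, 0.543, 1.70 and 1.42 CPM in the Day 60 wells and 0, 0.600, 0 and 0.201 CPM in the Day 113 wells. Day 30 and Day 113 were separate and Day 60 overlapped both. WNT7B, a β-catenin-type ligand, fell by 2.83 ± 0.95 (SE; edgeR adjusted p = 0.03); leaving out Day 113 replicate 2 gave a log2 change of -4.49. The WNT7B call was lost without Day 30 replicate 1 or 2, or Day 113 replicate 3 or 4 (edgeR adjusted p 0.054 to 0.076). WNT9A measured 5.54, 7.67, 4.51 and 3.74 CPM in the Day 30 wells, 8.30, 5.64 and 6.40 CPM in the Day 60 wells and 2.94, 3.30, 3.42 and 4.25 CPM in the Day 113 wells. Day 60 was the highest day and did not overlap with Day 113. WNT9A, a ligand of skeletal development, fell by 0.96 ± 0.27 (SE; edgeR adjusted p = 0.017) from Day 60 to Day 113, a call lost without Day 60 replicate 1 (edgeR adjusted p = 0.091). WNT2B and WNT10B were not called in any pair of days, with mean levels of 19.9, 23.9 and 19.0 CPM for WNT2B and of 0.708, 0.818 and 0.989 CPM for WNT10B at Days 30, 60 and 113. Exons of WNT2B overlap those of ST7L on the other strand, and whether counting used strand is not given in the sources used here.

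PORCN, the acyltransferase that all WNT ligands depend on, was not called between any days. PORCN held 9.36, 9.77, 11.4 and 9.93 CPM in the Day 30 wells, 9.57, 9.10 and 5.20 CPM in the Day 60 wells and 12.1, 9.82, 10.98 and 8.22 CPM in the Day 113 wells. Day 60 replicate 3 was the lowest well and the 3 days overlapped. Its log2 difference from Day 30 to Day 113 was 0.02 ± 0.20 (SE; edgeR adjusted p = 0.94).

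**Figure D3:**
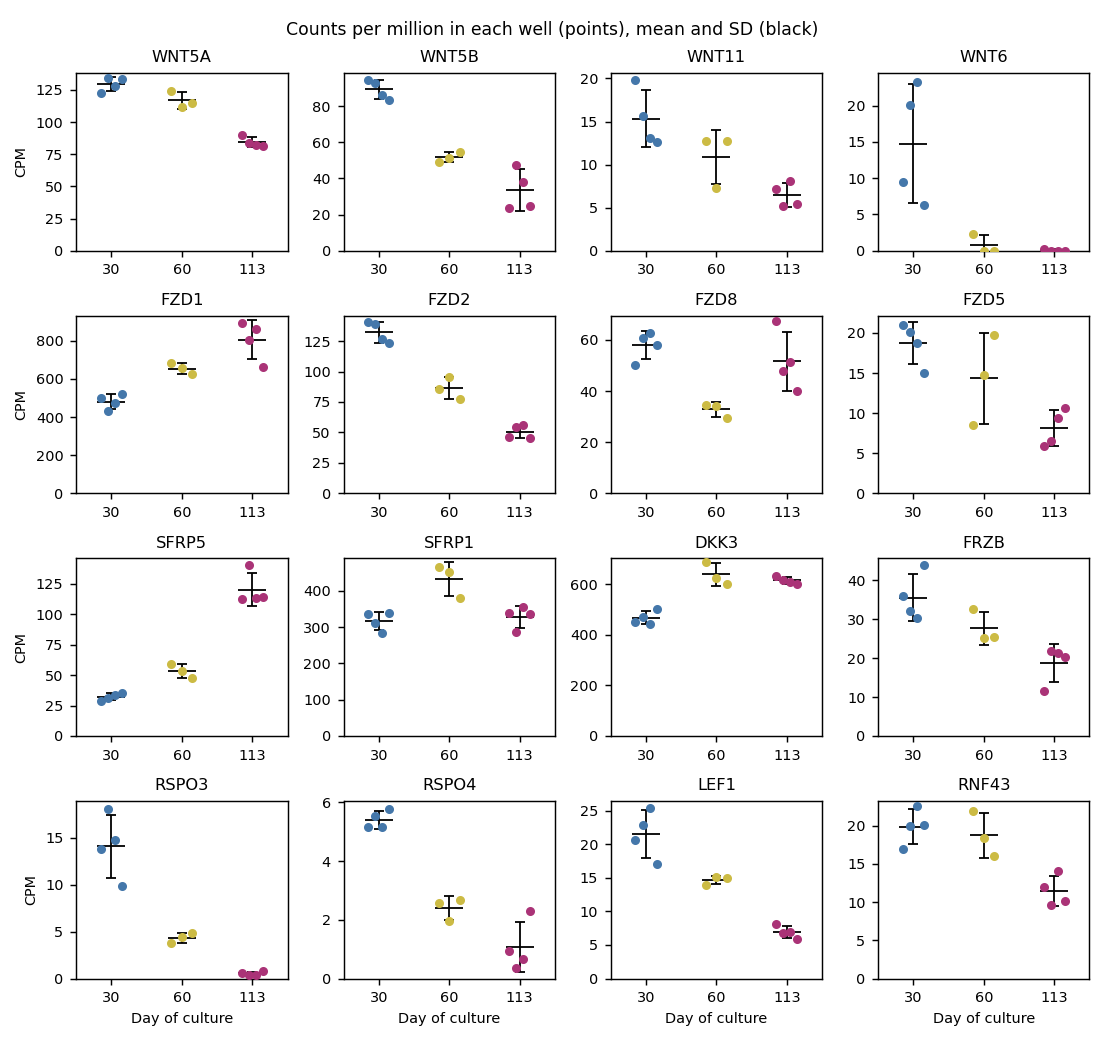
CPM in each well, with the mean of each day, for 16 genes of the set; each panel has its own linear axis from 0. SFRP5 rises at each step and WNT5B, FZD2, RSPO3 and LEF1 fall at each step, FZD8 dips at Day 60, and SFRP1 peaks there.

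Frizzled receptors differed between days in make-up: 6 of the 9 genes fell from Day 30 to Day 113 (17.2% of all genes fell) and FZD1 rose. Their summed level was lower in every Day 60 well than in every Day 30 well, and at Day 113 it overlapped with both. The 9 frizzled genes summed to 192 to 198 CPM per kb at Day 30, 172 to 189.7 at Day 60 and 167 to 203 at Day 113, and the Day 113 range covered both earlier ones. Within that sum the share of FZD1 was 32.1% to 37.9% at Day 30, 49.6% to 53.4% at Day 60 and 57.2% to 63.2% at Day 113. The share of FZD2 was 29.5% to 34.1%, 21.3% to 23.9% and 10.8% to 13.9% at the same days. These receptors overlapped in share at Day 30, and at Day 113 FZD1 stood at 116 ± 14.5 and FZD2 at 23.99 ± 2.59 CPM per kb (SD, n = 4). FZD6 was the next in level, at 10.9% to 13.0% and 10.9% to 14.9% of the sum at the first and last day. These shares are descriptions, with exon lengths from an annotation that may differ from the one used for counting.

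**Figure D4:**
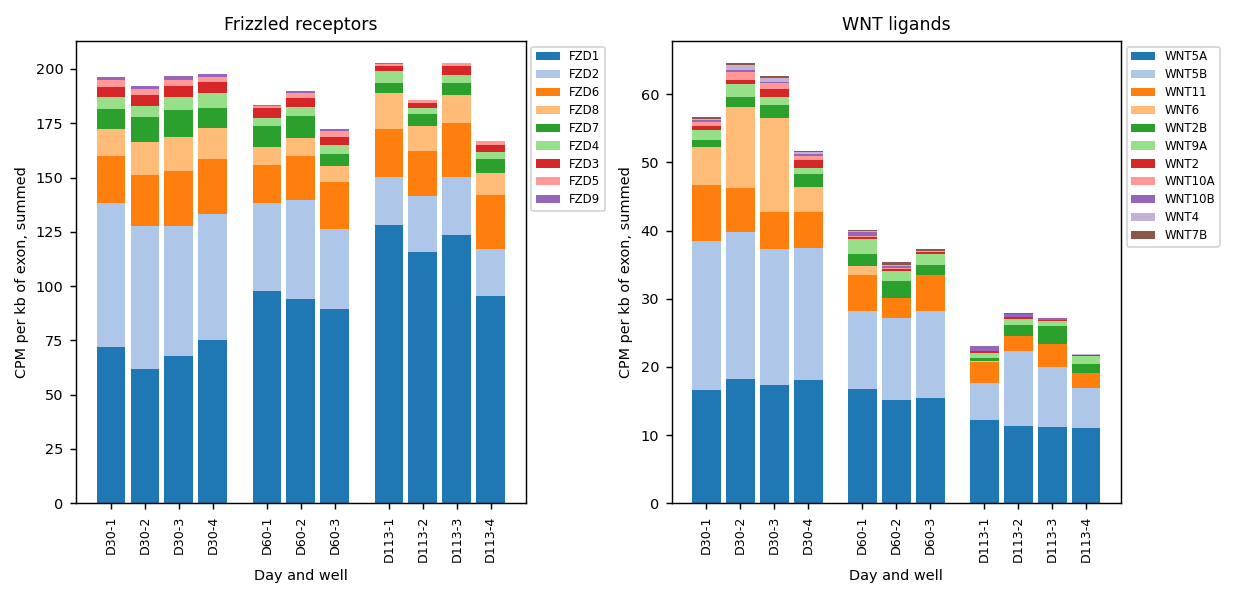
Stacked CPM per kb of exon in each well for the frizzled receptors and for the WNT ligands. The frizzled columns stay between 167 and 203 CPM per kb while FZD1 takes a growing part, and the ligand columns shrink from 51.7 to 64.6 at Day 30 to 21.9 to 27.9 at Day 113.

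FZD1 held 500.2, 430.4, 472 and 522 CPM in the Day 30 wells, 682, 655 and 623 CPM in the Day 60 wells and 893, 807, 861 and 665 CPM in the Day 113 wells. The later days were both above Day 30 and overlapped each other. FZD1 (chromosome 7, 91264433 to 91271326, plus strand) rose by 0.44 ± 0.11 (SE; edgeR adjusted p = 0.017) on the log2 scale by Day 60 and rose by 0.74 ± 0.10 (SE; edgeR adjusted p = 4.6e-05) by Day 113. FZD2 stood at 141, 139, 126 and 123 CPM in the Day 30 wells, 85.3, 95.8 and 77.6 CPM in the Day 60 wells and 46.2, 54.5, 56.2 and 45.7 CPM in the Day 113 wells. The days did not overlap, and the level fell at both steps. FZD2 (chromosome 17, 44557484 to 44561262, plus strand), a receptor for WNT5A among others, fell by 0.62 ± 0.11 (SE; edgeR adjusted p = 0.0019) in the first interval, fell by 0.77 ± 0.11 (SE; edgeR adjusted p = 0.00014) in the second and fell by 1.38 ± 0.10 (SE; edgeR adjusted p = 8e-08) in all. FZD8 measured 50.2, 60.6, 62.9 and 58.1 CPM in the Day 30 wells, 34.7, 34.0 and 29.7 CPM in the Day 60 wells and 67.5, 47.8, 51.4 and 40.0 CPM in the Day 113 wells. The Day 60 wells were below all others, and Day 113 overlapped with Day 30. FZD8 fell by 0.82 ± 0.15 (SE; edgeR adjusted p = 0.0025) and then rose by 0.66 ± 0.15 (SE; edgeR adjusted p = 0.0051), leaving -0.16 ± 0.14 (SE; edgeR adjusted p = 0.39) over the whole course. The FZD1 call at Day 60 was lost without Day 30 replicate 2, or Day 60 replicate 1 (edgeR adjusted p 0.052 to 0.054).

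Falls from Day 30 to Day 113 were also called for FZD3, FZD4, FZD5, FZD7 and FZD9. FZD3 held 62.4, 65.6, 71.3 and 72.5 CPM in the Day 30 wells, 61.2, 58.7 and 52.6 CPM in the Day 60 wells and 33.3, 31.3, 52.4 and 48.1 CPM in the Day 113 wells. Day 113 wells 1 and 2 were well below wells 3 and 4, and the 3 days did not overlap. FZD3, which acts in axon guidance and planar cell polarity, fell by 0.48 ± 0.15 (SE; edgeR adjusted p = 0.034) after Day 60 and fell by 0.72 ± 0.14 (SE; edgeR adjusted p = 0.0011) in all. FZD5 had 21.0, 20.1, 18.8 and 15.01 CPM in the Day 30 wells, 8.49, 14.8 and 19.7 CPM in the Day 60 wells and 5.95, 6.56, 9.41 and 10.7 CPM in the Day 113 wells. Day 60 was spread across the levels of the other days. FZD5, a receptor of eye and gut development, fell by 0.82 ± 0.26 (SE; edgeR adjusted p = 0.03) after Day 60 and fell by 1.20 ± 0.24 (SE; edgeR adjusted p = 0.0011) in all. The fall after Day 60 was 0.52 without Day 60 replicate 3. FZD7 stood at 34.9, 45.0, 47.1 and 35.8 CPM in the Day 30 wells, 37.7, 38.7 and 22.4 CPM in the Day 60 wells and 17.3, 21.0, 21.0 and 26.1 CPM in the Day 113 wells. The first and last day were separate. FZD7, a receptor prominent in pluripotent cells, fell by 0.63 ± 0.19 (SE; edgeR adjusted p = 0.023) after Day 60 and fell by 0.93 ± 0.17 (SE; edgeR adjusted p = 0.00063) in all. In the second interval the calls were lost for FZD3 without Day 60 replicate 1 or 2, or Day 113 replicate 1 or 2 (edgeR adjusted p 0.07 to 0.12) and with the 2 days fitted alone (0.079), for FZD5 without Day 60 replicate 2 or 3, or Day 113 replicate 1 or 2 (edgeR adjusted p 0.065 to 0.2) and with the 2 days fitted alone (0.068) and for FZD7 without Day 60 replicate 1 or 2, or Day 113 replicate 1 (edgeR adjusted p 0.051 to 0.11).

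FZD4 measured 42.0, 38.6, 44.2 and 49.3 CPM in the Day 30 wells, 26.0, 31.2 and 28.4 CPM in the Day 60 wells and 40.0, 21.3, 28.98 and 21.0 CPM in the Day 113 wells. Day 113 replicate 1 lay within the Day 30 range and the other late wells below it. FZD4, the receptor of norrin as well as of WNT ligands, fell by 0.64 ± 0.17 (SE; edgeR adjusted p = 0.0089) over the course, and its exons overlap PRSS23 on the other strand. FZD9 held 4.09, 3.40, 3.82 and 3.13 CPM in the Day 30 wells, 0.957, 1.88 and 2.08 CPM in the Day 60 wells and 1.44, 0.975, 0.656 and 0.842 CPM in the Day 113 wells. All Day 30 wells were above the later ones. FZD9, one of the genes in the deletion of Williams syndrome, fell by 1.87 ± 0.37 (SE; edgeR adjusted p = 0.00096). FZD6, which takes part in planar polarity, was not called in any pair of days, with daily means of 97.5, 80.1 and 94.1 CPM.

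The co-receptors LRP5 and LRP6 were measured beside each other: LRP5 fell and LRP6 was not called. LRP5 held 76.5, 89.1, 82.3 and 72.6 CPM in the Day 30 wells, 59.6, 60.3 and 58.8 CPM in the Day 60 wells and 59.5, 49.8, 55.3 and 51.7 CPM in the Day 113 wells. Both later days were below Day 30 and overlapped each other. LRP5 (chromosome 11, 68298412 to 68449275, plus strand) fell by 0.43 ± 0.10 (SE; edgeR adjusted p = 0.011) by Day 60 and fell by 0.57 ± 0.09 (SE; edgeR adjusted p = 0.00019) by Day 113, and the Day 60 call was lost without Day 30 replicate 2, or Day 60 replicate 1 or 3 (edgeR adjusted p 0.056 to 0.061). LRP6 stood at 85.3 ± 5.71 CPM (SD, n = 4), 85.4 ± 8.65 CPM (SD, n = 3) and 82.7 ± 16.3 CPM (SD, n = 4). The log2 difference of LRP6 from Day 30 to Day 113 was -0.04 ± 0.13 (SE; edgeR adjusted p = 0.83). Whether the change of LRP5 differed from that of LRP6 was not tested.

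Among R-spondins and their receptors, 3 of 7 genes (42.9%) were called over the course, against 34.5% of all genes. All 3 fell (17.2% of all genes fell) and were R-spondins, while LGR4, the abundant receptor, was not called. RSPO3, a ligand of the LGR receptors that is needed for coronary vessel formation, showed the largest fall among those of the 49 genes with counts in every well. RSPO3 held 13.8, 18.0, 14.7 and 9.86 CPM in the Day 30 wells, 3.77, 4.39 and 4.83 CPM in the Day 60 wells and 0.606, 0.412, 0.371 and 0.762 CPM in the Day 113 wells. The 3 days did not overlap. RSPO3 (chromosome 6, 127118671 to 127199481, plus strand) fell by 1.70 ± 0.26 (SE; edgeR adjusted p = 0.00064) in the first interval, fell by 3.01 ± 0.29 (SE; edgeR adjusted p = 6.8e-06) in the second and fell by 4.71 ± 0.28 (SE; edgeR adjusted p = 1.3e-08) in all. RSPO4 stood at 5.16, 5.54, 5.17 and 5.77 CPM in the Day 30 wells, 2.59, 1.95 and 2.68 CPM in the Day 60 wells and 0.953, 0.375, 0.656 and 2.29 CPM in the Day 113 wells. Replicate 4 was the highest Day 113 well and reached the Day 60 range. RSPO4, known for its role in nail formation, fell by 2.35 ± 0.42 (SE; edgeR adjusted p = 0.00049). RSPO2, which acts in limb and lung development, was under 1 CPM in every well, and it had 4 counts in all at Day 113, from replicate 4. It was called lower at Day 113 than at Day 30 (edgeR adjusted p = 0.031), with means of 0.575 ± 0.134 and 0.0401 ± 0.0802 CPM (SD, n = 4).

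LGR4 made up 89.7% to 93.8% of the summed CPM per kb of these 7 genes at Day 30 and 98.5% to 99.2% at Day 113. Its level was 490.2 ± 56.8 CPM (SD, n = 4) at Day 30, 447 ± 41.6 CPM (SD, n = 3) at Day 60 and 474 ± 33.8 CPM (SD, n = 4) at Day 113. LGR6 held 0.115, 0.1001, 0.263 and 1.06 CPM in the Day 30 wells, 1.34, 1.29 and 1.55 CPM in the Day 60 wells and 0.231, 0, 0.314 and 0 CPM in the Day 113 wells. LGR6 was above 1 CPM in every Day 60 well and in Day 30 replicate 4, and at or near 0 at Day 113. LGR6 fell by 3.25 ± 1.10 (SE; edgeR adjusted p = 0.042) from Day 60 to Day 113, a call lost without Day 30 replicate 3, Day 60 replicate 1, 2 or 3, or Day 113 replicate 2 or 4 (edgeR adjusted p 0.052 to 0.09). LGR5, a stem cell marker, and RSPO1 were not called, with daily means of 0.169 to 0.945 CPM.

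Of the 5 rises over the whole course, 4 were of genes listed here as secreted antagonists. They include DKK3, whose effect on WNT signalling is not settled, and WIF1, whose call was lost under 8 of 20 alternatives. Of 10 antagonists, 4 were higher at Day 113 than at Day 30 (17.3% of all genes) and 3 were lower (17.2%). Their summed level was 198 to 215 CPM per kb at Day 30, 271 to 302 at Day 60 and 282 to 290.3 at Day 113, so both later days were above Day 30. DKK3, SFRP1 and SFRP5 made up most of it. The share of DKK3 was 41.65% to 46.24% at Day 30 and 41.6% to 44.3% at Day 113. SFRP5, a secreted frizzled-like protein that binds WNT ligands and is expressed in the venous pole of the embryonic heart, contributed 7.84% to 8.94% at Day 30, 9.58% to 10.7% at Day 60 and 21.4% to 26.3% at Day 113.

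SFRP5 held 28.6, 31.0, 34.0 and 35.2 CPM in the Day 30 wells, 59.5, 53.5 and 47.7 CPM in the Day 60 wells and 112, 140.3, 114 and 114 CPM in the Day 113 wells. The days did not overlap, each was above the one before it, and Day 113 replicate 2 was the highest well. SFRP5 (chromosome 10, 97766751 to 97771999, minus strand) rose by 0.73 ± 0.11 (SE; edgeR adjusted p = 0.00069) on the log2 scale in the first interval, rose by 1.16 ± 0.12 (SE; edgeR adjusted p = 1e-05) in the second and rose by 1.90 ± 0.11 (SE; edgeR adjusted p = 9.8e-09) in all. DKK3 stood at 452, 472, 445 and 502 CPM in the Day 30 wells, 690.3, 625 and 602 CPM in the Day 60 wells and 632, 619, 609.7 and 601 CPM in the Day 113 wells. Day 30 lay below the other days, which overlapped. DKK3, a divergent DKK protein whose effect on WNT signalling is not settled, rose by 0.45 ± 0.09 (SE; edgeR adjusted p = 0.0041) by Day 60 and rose by 0.40 ± 0.08 (SE; edgeR adjusted p = 0.0015) by Day 113. SFRP1 measured 336, 310.4, 283 and 338 CPM in the Day 30 wells, 466, 453 and 379 CPM in the Day 60 wells and 338, 285, 355 and 335 CPM in the Day 113 wells. Day 60 was above both other days. SFRP1, a secreted frizzled-like antagonist, rose by 0.45 ± 0.11 (SE; edgeR adjusted p = 0.014) and then fell by 0.40 ± 0.11 (SE; edgeR adjusted p = 0.014), ending at 0.05 ± 0.10 (SE; edgeR adjusted p = 0.73) against Day 30. The calls of SFRP1 were lost for its rise without Day 30 replicate 3, or Day 60 replicate 1 or 2 (edgeR adjusted p 0.05 to 0.062), and for its fall without Day 60 replicate 1 or 2 (edgeR adjusted p 0.054 to 0.071).

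SFRP4 and WIF1 rose from low levels. SFRP4 held 0.229, 0, 0 and 0.172 CPM in the Day 30 wells, 0.223, 0.479 and 0.0631 CPM in the Day 60 wells and 2.66, 1.65, 3.00 and 1.52 CPM in the Day 113 wells. All Day 113 wells were above all earlier wells, of which 2 had no count. SFRP4, an antagonist of the same family, rose by 3.11 ± 0.94 (SE; edgeR adjusted p = 0.025) from Day 60 and rose by 4.44 ± 0.92 (SE; edgeR adjusted p = 0.0014) from Day 30, and the first of these calls was lost without Day 60 replicate 1 or 3, or Day 113 replicate 3 (edgeR adjusted p 0.065 to 0.078). WIF1 stood at 0.0764, 0.600, 0.0987 and 0.103 CPM in the Day 30 wells, 0.160, 1.25 and 0 CPM in the Day 60 wells and 0.115, 0.637, 2.11 and 6.14 CPM in the Day 113 wells. The days overlapped, and Day 113 replicate 4 held most of the level of that day. WIF1, which binds WNT ligands directly, rose by 3.32 ± 1.20 (SE; edgeR adjusted p = 0.042), and rose by 2.09 without Day 113 replicate 4. Its call was lost without Day 30 replicate 1, 3 or 4, or Day 113 replicate 3 or 4 (edgeR adjusted p 0.065 to 0.23) and under limma-voom (0.24), with robust dispersions (0.068) and with the replicate block (0.056). The summed fibroblast markers, 5 of 10 of which rose from Day 30 to Day 113 and 3 of which fell, and the endothelial markers, all 8 of which rose, were highest in Day 113 replicate 1. The fibroblast sum was 13069, 6784, 11308 and 5461 CPM in Day 113 replicates 1 to 4. The collagens COL1A1, COL1A2 and COL3A1 held most of it, at 4576, 2908 and 5128 CPM in replicate 1. The fibroblast markers that fell were LUM, PDGFRA and FBLN1. SFRP4 was higher in replicates 1 and 3, the wells with the higher fibroblast, endothelial and smooth muscle sums, while WIF1 was lowest in replicate 1. The part of such cells in the SFRP4 and WIF1 values was not tested.

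DKK1, FRZB and NOTUM fell. DKK1 held 6.87, 6.00, 11.1 and 5.81 CPM in the Day 30 wells, 5.23, 1.88 and 3.31 CPM in the Day 60 wells and 4.13, 3.22, 2.05 and 1.56 CPM in the Day 113 wells. All Day 30 wells were above all later ones. DKK1 fell by 1.44 ± 0.36 (SE; edgeR adjusted p = 0.0055) from Day 30 to Day 113. FRZB stood at 35.9, 32.2, 30.2 and 44.0 CPM in the Day 30 wells, 32.6, 25.1 and 25.4 CPM in the Day 60 wells and 11.6, 21.9, 21.3 and 20.2 CPM in the Day 113 wells. Day 113 replicate 1 was the lowest well, and Day 113 did not overlap with the other days. FRZB, a frizzled-related antagonist also called SFRP3, fell by 0.56 ± 0.20 (SE; edgeR adjusted p = 0.047) after Day 60 and fell by 0.93 ± 0.18 (SE; edgeR adjusted p = 0.001) in all. The FRZB call after Day 60 was lost without Day 30 replicate 1, 2 or 3, Day 60 replicate 1, 2 or 3, or Day 113 replicate 1 or 4 (edgeR adjusted p 0.052 to 0.19) and with the 2 days fitted alone (0.076). NOTUM measured 2.79, 5.07, 2.17 and 2.58 CPM in the Day 30 wells, 1.60, 1.11 and 2.62 CPM in the Day 60 wells and 0.548, 1.76, 0.599 and 1.12 CPM in the Day 113 wells. Day 30 replicate 2 was the highest well, and the first and last day did not overlap. NOTUM, the enzyme that removes the lipid from WNT ligands, fell by 1.65 ± 0.46 (SE; edgeR adjusted p = 0.011), a call lost without Day 30 replicate 2 (edgeR adjusted p = 0.053). SFRP2 and DKK2 were not called in any pair of days. SFRP2 varied between wells of a day, at 13.3, 50.2, 60.3 and 15.4 CPM in the Day 30 wells, and DKK2 stayed between 0.295 and 1.67 CPM.

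Genes that limit the pathway from inside the cell, several of them targets of β-catenin themselves, fell in 3 of 5 cases from Day 30 to Day 113. These were AXIN2, RNF43 and ZNRF3, where 17.2% of all genes fell. AXIN2 held 16.7, 15.1, 13.6 and 14.1 CPM in the Day 30 wells, 10.98, 13.3 and 12.1 CPM in the Day 60 wells and 10.5, 10.4, 12.9 and 8.71 CPM in the Day 113 wells. The Day 113 wells were below those of Day 30, with replicate 3 the highest of them. AXIN2, a scaffold of the destruction complex used as a readout of β-catenin activity, fell by 0.48 ± 0.15 (SE; edgeR adjusted p = 0.022), a call lost without Day 30 replicate 1 or 2, or Day 113 replicate 4 (edgeR adjusted p 0.053 to 0.075). RNF43 stood at 17.0, 19.9, 22.6 and 20.1 CPM in the Day 30 wells, 21.9, 18.4 and 16.0 CPM in the Day 60 wells and 11.9, 9.67, 14.0 and 10.2 CPM in the Day 113 wells. Day 113 did not overlap with either earlier day. RNF43, a ligase that removes frizzled receptors from the membrane, fell by 0.71 ± 0.17 (SE; edgeR adjusted p = 0.0059) after Day 60 and fell by 0.79 ± 0.16 (SE; edgeR adjusted p = 0.00095) in all, and its exons overlap SUPT4H1 and TSPOAP1-AS1. ZNRF3 measured 40.1, 36.7, 37.5 and 38.3 CPM in the Day 30 wells, 44.0, 42.0 and 32.7 CPM in the Day 60 wells and 28.4, 29.4, 31.0 and 28.8 CPM in the Day 113 wells. The same separation of Day 113 held. ZNRF3, the related ligase, fell by 0.43 ± 0.11 (SE; edgeR adjusted p = 0.012) after Day 60 and fell by 0.38 ± 0.11 (SE; edgeR adjusted p = 0.012) from Day 30 to Day 113. The call after Day 60 was lost without Day 60 replicate 1 or 2 (edgeR adjusted p 0.05 to 0.07).

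NKD1 held 1.80, 1.87, 3.39 and 2.16 CPM in the Day 30 wells, 3.51, 3.35 and 4.20 CPM in the Day 60 wells and 0.895, 1.05, 1.57 and 2.01 CPM in the Day 113 wells. Every Day 60 well was above every Day 113 well, and Day 30 overlapped both. NKD1, an inhibitor that binds Dishevelled, fell by 1.42 ± 0.37 (SE; edgeR adjusted p = 0.011) from Day 60 to Day 113. AXIN1, the scaffold that is not a target of the pathway, was not called, at 32.3 ± 3.65 CPM (SD, n = 4), 29.3 ± 3.51 CPM (SD, n = 3) and 28.0 ± 2.39 CPM (SD, n = 4).

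Among the factors that bind DNA with β-catenin, LEF1 fell and the other 3 were not called in any pair of days. LEF1 held 20.6, 22.8, 25.5 and 17.0 CPM in the Day 30 wells, 14.0, 15.1 and 14.9 CPM in the Day 60 wells and 8.11, 6.79, 6.96 and 5.86 CPM in the Day 113 wells. The 3 days did not overlap. LEF1 (chromosome 4, 108047548 to 108168932, minus strand), itself a β-catenin target, fell by 0.55 ± 0.16 (SE; edgeR adjusted p = 0.042) in the first interval, fell by 1.08 ± 0.16 (SE; edgeR adjusted p = 0.00027) in the second and fell by 1.63 ± 0.16 (SE; edgeR adjusted p = 1.2e-06) in all. Its share of the CPM per kb of the 4 factors was 20.5% to 26.7% at Day 30, 20.0% to 23.4% at Day 60 and 9.80% to 11.3% at Day 113. The first call was lost without Day 30 replicate 1, 2 or 3, Day 60 replicate 1, 2 or 3, or Day 113 replicate 3 (edgeR adjusted p 0.052 to 0.15) and under upper-quartile scaling (0.057). TCF7L2, the most abundant factor per kb, averaged 46.3 ± 1.18 CPM at Day 30 (SD, n = 4) and 40.1 ± 4.83 CPM at Day 113 (SD, n = 4). TCF7L1, mostly a repressor, averaged 25.2 ± 2.21 CPM and 19.1 ± 3.53 CPM at the same days (SD, n = 4). For TCF7 the levels were 5.07 ± 0.324 and 3.43 ± 1.505 CPM (SD, n = 4), and its exons overlap SKP1.

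The change differed between the first and the second interval for 3 of the 49 genes when the difference itself was tested (9.34% of all genes): it was above 0 for 1 gene (4.97% of all genes) and below 0 for 2 (4.38%). FZD8 fell and then rose, and the difference (second interval minus first) was 1.48 ± 0.27 (SE; edgeR adjusted p = 0.0038). For SFRP1, which rose and then fell, it was -0.85 ± 0.19 (SE; edgeR adjusted p = 0.011), lost without Day 60 replicate 1 or 2 (edgeR adjusted p 0.052 to 0.079). For NKD1 it was -2.10 ± 0.63 (SE; edgeR adjusted p = 0.048), lost without Day 30 replicate 1, 2 or 4, Day 60 replicate 1, 2 or 3, or Day 113 replicate 1, 2 or 3 (edgeR adjusted p 0.057 to 0.17). The intervals share the Day 60 wells.

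Other genes of the pathway, taken from lists of symbols, were examined beside the 49. Of 19 genes of WNT export and extracellular handling, 9 were lower (17.2% of all genes) and 3 higher (17.3%) at Day 113 than at Day 30, with a median log2 fold change of -0.47 against -0.02 for all genes. GPC3, a glypican that binds WNT ligands at the cell surface, fell by 3.74 ± 0.23 (SE; edgeR adjusted p = 1.7e-08); its means were 99.7 ± 32.2 and 7.46 ± 1.10 CPM at Days 30 and 113 (SD, n = 4 each). CER1, a secreted antagonist of nodal, BMP and WNT ligands, had 2.33, 3.10, 2.14 and 1.58 CPM at Day 30, no count at Day 60 and 5 counts at Day 113, in replicate 4. IGFBP4, a binding protein that also interferes with frizzled and LRP6, rose by 1.97 ± 0.15 (SE; edgeR adjusted p = 1.4e-07), from 137 ± 15.3 to 537 ± 128 CPM (SD, n = 4).

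In the intracellular chain, 12 of 29 genes (41.4%) were called over the course, against 34.5% of all genes. Of these, 10 were lower (17.2% of all genes) and 2 higher (17.3%), and the median of the list was -0.18 against -0.02 for all genes. TLE1, a co-repressor of TCF/LEF factors, fell by 1.45 ± 0.28 (SE; edgeR adjusted p = 0.00075). DACT2 and CXXC4, which both bind Dishevelled, fell by 1.60 ± 0.39 (SE; edgeR adjusted p = 0.0045) and fell by 0.98 ± 0.13 (SE; edgeR adjusted p = 3e-05), respectively. Receptors and planar polarity genes used without β-catenin (20 genes) gave 9 lower (17.2% of all genes) and 4 higher (17.3%), with a median of -0.07 against the same -0.02. FAT4, a large cadherin of planar polarity, rose by 1.85 ± 0.17 (SE; edgeR adjusted p = 9.4e-07), from 18.7 ± 2.54 to 67.5 ± 16.7 CPM (SD, n = 4). The core polarity genes VANGL2 and CELSR3 fell by 0.99 ± 0.09 (SE; edgeR adjusted p = 6.5e-07) and fell by 0.95 ± 0.21 (SE; edgeR adjusted p = 0.0023), respectively.

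Of 19 common β-catenin target genes, 12 were lower at Day 113 (17.2% of all genes) and 2 higher (17.3%), with a median of -0.66 against -0.02 for all genes. CDX2, a factor of posterior and gut identity, had 2.94, 3.87, 2.70 and 1.37 CPM at Day 30 and no count in the 7 later wells, which was at least 27.1-fold lower at Day 60 and at least 26.9-fold lower at Day 113, taking 3 counts per library as the limit that a count of 0 allows. The median of the list was also -0.66 with CDX2 at that bound, as it must be while CDX2 stays below the median. SALL4, a factor of pluripotent and early progenitor cells, fell by 4.99 ± 0.34 (SE; edgeR adjusted p = 3.5e-08), from 16.4 ± 3.10 to 0.497 ± 0.279 CPM (SD, n = 4). MSX2, a homeobox factor, fell by 2.16 ± 0.26 (SE; edgeR adjusted p = 1.3e-05). Many of these genes answer to other pathways too. CDX2 and SALL4 were lowest or absent at the days at which the summed endoderm and epithelium markers were low. The summed pluripotency markers were low at those days too. The part of such cells in these values was not tested.

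At Day 30, replicates 2 and 3 were both above replicates 1 and 4 for 12 of the 49 genes (24.5%), a share near the 21.0% of all genes. They were both below for 6 of the 49 (12.2%), against 19.4% of all genes. WNT6, WNT10A, WNT4 and SFRP2 were among the 12. Replicates 2 and 3 were also both above replicates 1 and 4 in the summed fibroblast, epicardial, endothelial, neural and pluripotency markers. They were not in the sums of the other marker lists. The part of such cells in these values was not tested. Among genes of at least 1 CPM at Day 30, the coefficient of variation over wells had a median of 11.3% for the 41 genes of the set and 11.3% for all genes. It was highest for SFRP2 (69.0%) and lowest for TCF7L2 (2.54%).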

How the data were processed

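RNA was measured in 11 wells. STAR 2.5.3a, featureCounts 2.0.3 and the build hg38 are listed in the submitters' processing notes; the annotation and use of strand are not given in the sources used here. The authors deposited whole-number read counts per gene, with no normalization, and a TPM table. Gene lengths implied by count and TPM did not correlate between libraries (median Spearman rho -0.00095 over 55 pairs and 14718 genes), so the deposited TPM values were used for that check only. Counts were tested with edgeR 4.0.16 (glmQLFit, glmQLFTest, TMM) in R 4.3.3, with all wells in 1 fit by day. P-values were adjusted by Benjamini-Hochberg over 19990 genes. The SE of a log2 fold change is its size over the root of F. The filterByExpr step (minimum count 10) removed 0 genes. Levels between genes are CPM per kb of merged GENCODE 29 exons, and coordinates and promoters are RefSeq GRCh38.p14. The limit of 3 counts for a count of 0 covers counting error only. The script was tested on simulated data.

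Genes called in some pair of days with a mean of at least 1 CPM in its higher day are given by well, as are AXIN2, LEF1, NKD1, NOTUM, RNF43, ZNRF3 and PORCN. From each pathway list the 3 called genes with the largest changes are named. The members, lists and rules were chosen with earlier results of these data known. The deviations of same-numbered wells were positively correlated in all 10 pairs (0.022 to 0.158), but over 0.1 in 4 only, so the rule for pairing (over 0.1 in every pair) was not met. Alternatives were DESeq2 1.42.0, limma-voom 3.58.1, other scaling, filters, robust dispersions, a replicate block, a threshold of 0.01, the 2 days alone and leaving out each well. Alternatives for the other pathway genes, and the bound for CDX2, were chosen after seeing the data.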

Additional observations from a re-analysis of the deposited data

Results flagged for a closer look

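Single wells stood apart from the other 3 of their day for 8 of 98 groups of 4 values examined, where chance gives about 5%. For WNT6, WNT10A and RSPO2 at Day 113 the other wells were all at 0. Any count at all sets a well apart there, so that rate does not apply to them and no excess over it can be read. At Day 113, replicate 1 had 11.6 CPM of FRZB against 20.2 to 21.9 CPM in the others, and 0.289 CPM of WNT6 against 0. Replicate 2 had 58.3 CPM of LRP6 against 90.3 to 91.7 CPM, 140.3 CPM of SFRP5 against 112 to 114 CPM, and 0.337 CPM of WNT10A against 0. Replicate 4 had 0.160 CPM of RSPO2 against 0. At Day 30, replicate 4 had 1.06 CPM of LGR6 against 0.1001 to 0.263 CPM, and replicate 2 had 0.600 CPM of WIF1 against 0.0764 to 0.103 CPM.

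A change that differed between the 2 intervals, by a test of the difference, was found for FZD8 (1.48 on the log2 scale, edgeR adjusted p = 0.0038), SFRP1 (-0.85, edgeR adjusted p = 0.011) and NKD1 (-2.10, edgeR adjusted p = 0.048). The Day 60 wells of FZD8 were below and those of SFRP1 above every well of the other days, and those of NKD1 were above the Day 113 wells only.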

How the results depend on the processing

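Of 62 called values of single genes, 39 kept their direction and call under each alternative run, 23 lost the call under at least 1, of which 15 only without 1 well, and 0 reversed. Each of the 12 named pathway genes kept its call. At an adjusted p under 0.01 the counts were 2 higher and 3 lower from Day 30 to Day 60, 5 lower from Day 60 to Day 113, and 1 differing between intervals. DESeq2 gave 11 lower in the first interval and 5 differing between intervals, limma-voom gave 5 differing, and the 2 days fitted alone gave 16 lower in the first interval. The replicate block moved no count by over 1.5 times and ended 1 call, WIF1 from Day 30 to Day 113 (edgeR adjusted p = 0.056); same-numbered wells correlated best in 14 of 20 combinations of well and day, a hint from the data. Leaving out 1 well gave 2 to 4 higher and 4 to 10 lower in the first interval, 2 to 4 and 8 to 16 in the second, 4 to 5 and 22 to 26 over the course, and 1 to 4 differing between intervals. The cause of these shifts was not tested. The other pathway genes called ran from 18 to 28, 25 to 38 and 46 to 52. Another scaling moved the median of all genes by at most 0.064 on the log2 scale (upper quartile, downward). Depth limits genes under 1 CPM on average, 9 of 49. Of these, LGR5, LGR6, RSPO1, RSPO2, WNT4 and WNT7B had at least 1 Day 113 well at 0, and DKK2, SFRP4 and WNT10B had none.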
